A study of Mus musculus with 6 samples.

Results

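Intergenic FOXC2 sites called only after adriamycin (ADR) were examined in the ChIP-seq peak lists of podocytes, the glomerular epithelial cells whose foot processes form the filtration slits. They were chosen by a rule that used the peak calls themselves. An ADR peak had to share no base with any PBS peak, and its summit had to lie outside every GENCODE M21 transcript and more than 1 kb from the ends of each. Of 40067 ADR peaks, 12955 (32.3%) shared no base with a PBS peak, and 3241 of these were intergenic. They made up 40.5% of the 8011 intergenic ADR peaks. Since the rule fixed where they were called, their absence from the PBS list and their folds are given below as a description and not as a result.

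Both groups were littermates that carried the mT/mG reporter and a podocyte-specific Cre transgene, which turns on a green membrane reporter for FACS. Per the study's methods the mice were male and of mixed background, and they received ADR at 18 mg/kg or PBS by retro-orbital injection on days 0 and 7. Podocytes were sorted on day 9, and FOXC2 was precipitated with the antibody labelled Abcam b5060. Each condition had 3 samples, which the authors pooled into 1 peak list, so each site has 1 value, no replicate error exists, and no test between the conditions was possible. The 95% intervals below cover counting error only, the read depth is unknown, and no expression values were available here against which the sorted cells could be checked.

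FOXC2 is a forkhead TF that podocytes need for their development, and forkhead proteins bind the core of GTAAACA and related strings. In podocytes such factors act beside WT1, LMX1B, TCF21 and the TEAD proteins, which are the partners of the Hippo pathway cofactor YAP. Intergenic peaks of a TF often mark enhancers, which can lie far from the gene they control, so the nearest gene named below is a position and not a target. AP-1, the dimer of FOS and JUN proteins, is an injury-responsive factor whose motif served for comparison.

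Windows around 4 of the summits are shown because they carry the motifs on which the results turn, or lie near a gene of the podocyte list. Each covers 100 bp to each side of the summit on the plus strand of GRCm38, with exact motif matches in capitals. The forkhead motif was NNAAANA, with a purine (A or G) at the first N and a pyrimidine (C or T) at the others. The LMX1B motif was TTAATTA, or alternatively its reverse complement. The TEAD motif was NCATTCCN, with a purine at the start and A or T at the end. The AP-1 motif was TGANTCA, with C or G in the middle. The WT1 motif was GNGNGGGNG, with any base at the first N, G or T at the next and A or C at the last. All were searched on both strands.
Site near *Ren1*, chr1:133344451-133344651: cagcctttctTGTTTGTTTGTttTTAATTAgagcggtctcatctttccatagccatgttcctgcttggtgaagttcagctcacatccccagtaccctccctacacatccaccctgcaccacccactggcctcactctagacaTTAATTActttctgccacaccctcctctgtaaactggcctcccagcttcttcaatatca
Site near *F930015N05Rik*, chr11:64544346-64544546: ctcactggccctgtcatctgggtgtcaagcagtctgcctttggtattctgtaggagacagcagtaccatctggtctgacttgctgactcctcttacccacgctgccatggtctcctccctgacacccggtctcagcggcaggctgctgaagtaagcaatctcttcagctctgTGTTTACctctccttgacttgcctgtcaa
Site near *Sh2d4a*, chr8:68260399-68260599: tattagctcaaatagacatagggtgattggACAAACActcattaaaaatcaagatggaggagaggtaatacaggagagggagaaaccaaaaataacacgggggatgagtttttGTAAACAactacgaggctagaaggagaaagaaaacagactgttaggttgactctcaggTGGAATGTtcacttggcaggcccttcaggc
Site near *Rhpn1*, chr15:75720774-75720974: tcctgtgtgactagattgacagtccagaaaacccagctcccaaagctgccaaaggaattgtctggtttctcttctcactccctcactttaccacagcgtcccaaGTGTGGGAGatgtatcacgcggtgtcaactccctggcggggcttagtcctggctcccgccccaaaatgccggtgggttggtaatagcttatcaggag
The site near *Ren1*, with forkhead and LMX1B matches, had the highest fold of all 3241 sites. The next shown, the strongest with a forkhead match and none of the other 4 motifs, has its match 72 to 78 bp after the summit. The site near *Sh2d4a* holds a pair of forkhead matches and a TEAD match. The *Rhpn1* site holds a WT1 match that starts 4 bp after the summit.

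The fold is the authors' enrichment of a peak over its local control. The sites had a median fold of 6.13 (quartiles 4.91 and 9.10, range 2.55 to 42.1), a median −log10 q of 9.10 and a median width of 273 bp. In 675 sites (20.8%) the fold was 10 or more, and in 109 it was 20 or more. The share of intergenic ADR peaks called only after ADR was 53.3% below a fold of 5, 47.97% from 5 to 10, 30.4% from 10 to 20 and 11.1% at 20 and above. Weak peaks were thus more often without a PBS partner than strong ones. The 4770 intergenic ADR peaks shared with PBS had a median fold of 9.10, and the 3713 intergenic sites called only in PBS, out of 8528 intergenic PBS peaks, had a median fold of 5.18.

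The nearest PBS peak lay a median of 12.3 kb from a site, within 1 kb of 339 sites (10.5%) and within 10 kb of 1475 (45.5%). At the edge of the overlap rule, 9 sites had a PBS peak within 100 bp and a median fold of 5.57. Just outside it, 11 intergenic ADR peaks were overlapped by 1 to 50 bp and had a median fold of 4.27. At the edge of the intergenic rule, 122 ADR-only summits lay within 500 bp outside the margin of 1 kb (median fold 5.93), and 156 excluded summits lay within 500 bp inside it (median fold 5.69). An ADR peak shared with PBS lay within 10 kb of 1296 sites (39.99%) and within 50 kb of 2363 (72.9%).

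Among ADR-only peaks 25.02% were intergenic (interval 24.3 to 25.8%), and among ADR peaks shared with PBS 17.6% were (17.1 to 18.1%). Within each context, 10.5% of promoter, 43.3% of intronic and 40.5% of intergenic ADR peaks were ADR-only, against 32.3% of all ADR peaks. The intergenic space left by the rule was 1360 Mb, or 51.4% of the sequenced genome, and held 2.38 of the sites per Mb.

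The sites lay farther from genes than other intergenic FOXC2 sites. Their median distance to the nearest of 21935 protein-coding gene starts was 47.6 kb (quartiles 15.1 and 145 kb). It was 34.7 kb for intergenic PBS-only sites and 35.0 kb for shared intergenic ADR peaks. Of the ADR-only sites 33.5% (interval 31.9 to 35.2%) were over 100 kb from any coding start, against 22.5% (21.1 to 23.8%) of PBS-only and 23.4% (22.2 to 24.6%) of shared sites. Beyond 500 kb lay 159 sites (4.91%), against 65 PBS-only sites (1.75%). With a margin of 5 kb around transcripts in place of 1 kb, the median rose to 69.1 kb.

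**Figure D1:**
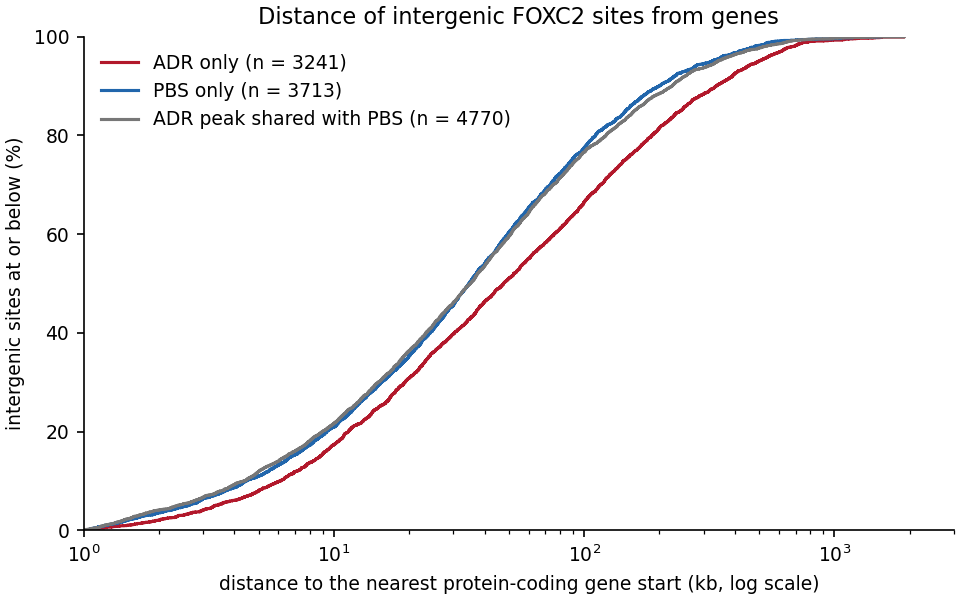
Cumulative share of intergenic FOXC2 sites (y axis, percent) by distance from the summit to the nearest protein-coding gene start (x axis, kb, log scale), with 1 line for each class of sites. The line of the ADR-only sites (median 47.6 kb) runs below the other lines (34.7 kb for PBS only, 35.0 kb for shared), which lie close together.

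Forkhead matches were more frequent at the sites than at the other intergenic classes. A match lay within 100 bp of the summit at 1320 of 3241 sites (40.7%, interval 39.0 to 42.4%). The share was 31.3% in equally long windows centered 1 kb away on both sides, 23.5% at intergenic PBS-only sites and 27.6% at shared intergenic ADR peaks. ADR-only sites exceeded PBS-only sites by 17.2 percentage points (interval 15.04 to 19.4). At least 2 forkhead matches were found at 11.9% of ADR-only, 4.201% of PBS-only and 6.08% of shared sites. The strict string GTAAACA was present at 7.16% of ADR-only sites, 2.47% of their flanking windows and 3.53% of PBS-only sites.

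GC content moved with the forkhead share. The windows had a median GC content of 48.3%, against 51.2% for PBS-only and 52.2% for shared sites, and the forkhead motif is rich in A and T. With PBS-only sites weighted to the GC content of the ADR-only sites the forkhead difference was 11.6 points, in place of 17.2. In 67964 evenly spaced intergenic windows of the genome, with a median GC content of 40.3%, 35.9% held a forkhead match. This fell to 23.8% when the windows were weighted to the GC content of the sites, which gives the sites 1.71 times that share.

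LMX1B, a LIM homeodomain TF that podocytes require and that binds A- and T-rich strings, had the largest ratio of ADR-only to PBS-only shares among the 5 motifs. Its motif occurred at 307 sites (9.47%, interval 8.51 to 10.5%), 1.64% of PBS-only and 3.42% of shared intergenic sites. The difference from PBS-only sites was 7.83 points (interval 6.74 to 8.92), and the ratio of the shares was 5.77. The flanking windows had 4.07%, and evenly spaced intergenic windows 4.77%, or 2.19% when weighted by GC content. The share was higher at the sites than at intronic ADR-only peaks, where it was 6.70%, by 2.78 points (interval 1.62 to 3.94).

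TEAD matches were present at 440 sites (13.6%, interval 12.4 to 14.8%), 3.98 times the share of the flanking windows (3.41%), and at 3.35% of evenly spaced windows. Weighted by GC content, the evenly spaced windows had 3.27%. PBS-only sites had 7.51%, which is 6.06 points less (interval 4.61 to 7.51). Shared intergenic ADR peaks had 13.0%, and that difference of 0.54 points had an interval, −0.98 to 2.05, that includes 0. The TEAD share was thus higher than at PBS-only sites, and no difference from shared sites was detectable.

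AP-1 matches went the other way. They occurred at 76 sites (2.34%, interval 1.88 to 2.93%), below the 3.84% of the flanking windows and the 2.94% of evenly spaced windows. Weighted by GC content, the evenly spaced windows had 3.20%. PBS-only intergenic sites had 20.4% (interval 19.1 to 21.7%) and shared sites 7.002%. The difference from PBS-only sites was −18.1 points (interval −19.5 to −16.7).

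WT1, the zinc finger TF at the center of the podocyte program, had matches at 655 sites (20.2%, interval 18.9 to 21.6%), 4.98 times the share of the flanks (4.06%), and at 2.65% of evenly spaced windows. Weighted by GC content, the evenly spaced windows had 5.69%. Shared intergenic sites had 33.0%, which is 12.8 points more (interval of the ADR-only minus shared difference −14.8 to −10.9). PBS-only sites had 19.3%, and their difference of 0.90 points had an interval of −0.98 to 2.78. That difference changed sign under several alternatives, down to −7.16 points in lists of 20000 peaks each. No unweighted difference in WT1 matches between ADR-only and PBS-only sites was thus detectable in the full lists. With PBS-only sites weighted to the fold of the ADR-only sites the difference was −3.64 points, and no interval was computed for it.

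**Figure D2:**
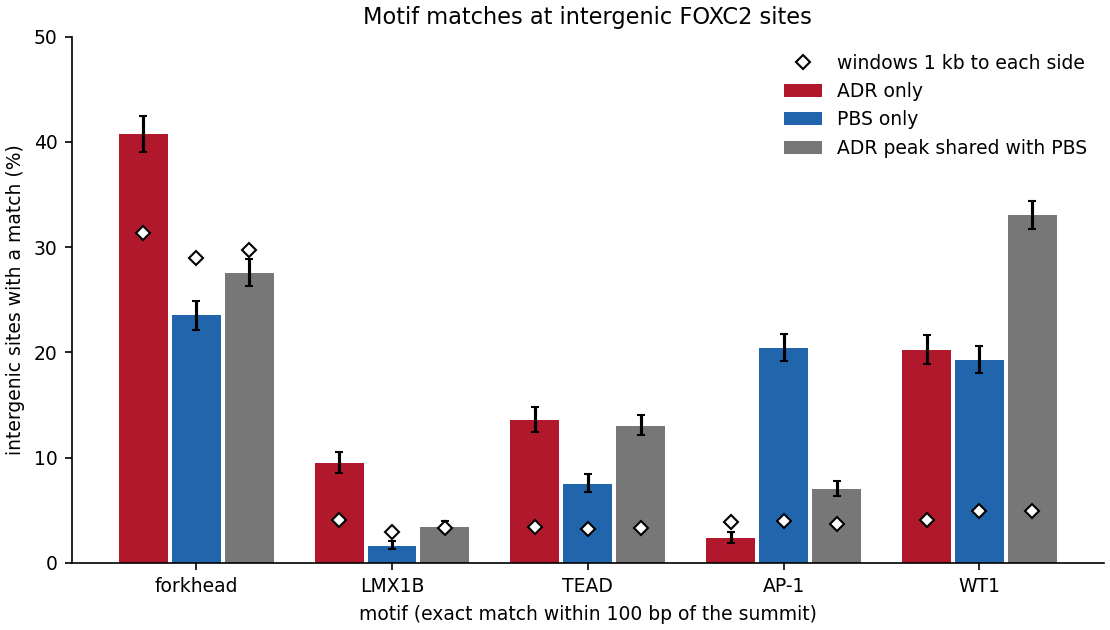
Share of intergenic sites with an exact motif match within 100 bp of the summit (y axis, percent) for 5 motifs (x axis), in ADR-only (n = 3241), PBS-only (n = 3713) and shared ADR sites (n = 4770). Error bars are 95% Wilson intervals and diamonds the windows 1 kb to each side. ADR-only sites have the tallest bars for forkhead (40.7%) and LMX1B (9.47%) and the lowest for AP-1 (2.34%).

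The matches differed in how they lay around the summit. WT1 matches of the ADR-only sites fell from 9.66 per 100 sites in the first 20 bp from the summit to 1.94 at 60 to 80 bp. TEAD matches fell from 4.01 to 2.38 over the same steps. Forkhead matches did not peak at the summit, with 11.1 per 100 sites in the first 20 bp, 12.8 at 40 to 60 bp and 11.8 at 60 to 80 bp. LMX1B matches were at 2.84 per 100 sites in the first 20 bp and 3.15 at 60 to 80 bp. In the last step, 80 to 100 bp, the end of the window cuts off some matches. ADR-only sites had 8.79 forkhead and 1.70 LMX1B matches per 100 sites there. PBS-only sites went from 6.17 at 60 to 80 bp to 5.47 for forkhead, and from 0.46 to 0.48 for LMX1B. How much of the fall at ADR-only sites came from the end of the window was not tested.

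**Figure D3:**
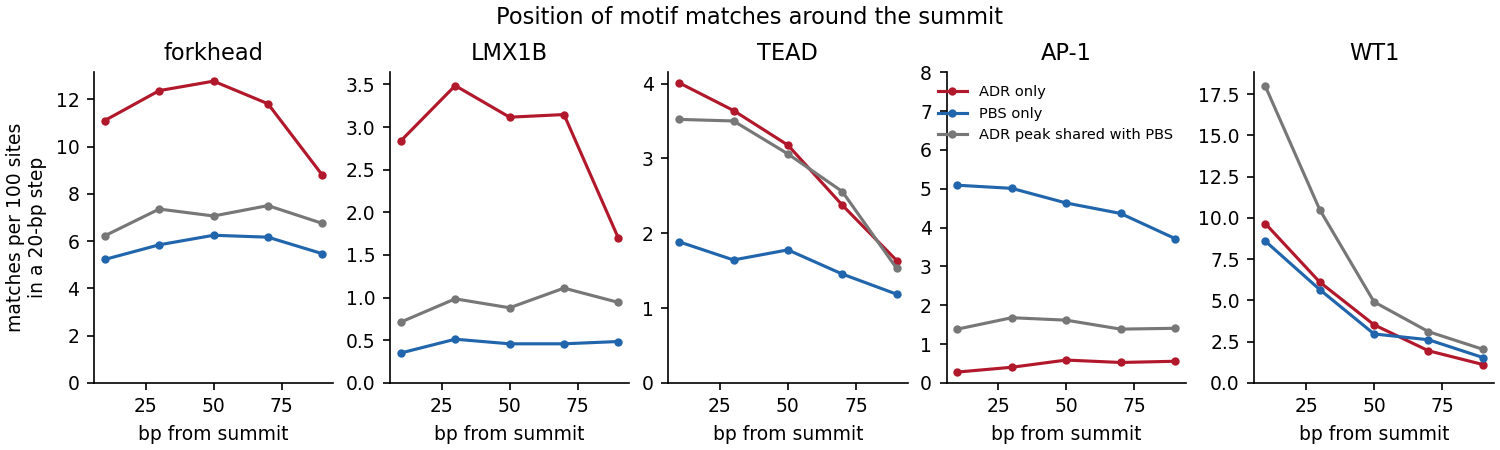
Motif matches per 100 sites in each 20-bp step (y axis, scale differs between panels) by distance from the peak summit (x axis, bp), 1 panel per motif and 1 line per class of intergenic sites. WT1 and TEAD matches of ADR-only sites decline from the summit (9.66 to 1.94 and 4.01 to 2.38 per 100 sites by 60 to 80 bp), and the forkhead line stays between 11.1 and 12.8 up to 80 bp.

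Motif content also varied with the strength of the sites. In the 649 sites with the lowest folds (2.55 to 4.73) the LMX1B share was 6.16% (interval 4.56 to 8.28%), and in the 648 with the highest (10.3 to 42.1) it was 15.9% (13.3 to 18.9%). The forkhead share was 39.1% (35.5 to 42.9%) in the weakest and 46.8% (42.9 to 50.6%) in the strongest of these sites. The TEAD share was 14.5% and 11.6%, and the WT1 share 18.03% and 20.1%, with overlapping intervals in each case. Median GC content moved with the fold, from 49.3% in the weakest to 47.8% in the strongest, and its part was not tested.

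No association of forkhead with LMX1B matches was detectable within the sites. A forkhead match was present at 42.3% (interval 36.9 to 47.9%) of the sites with an LMX1B match and at 40.6% (38.8 to 42.3%) of those without. With a WT1 match the forkhead share was 32.4% (28.9 to 36.0%), and without one 42.8% (41.0 to 44.8%). TEAD matches were likewise at 10.4% of sites with and 14.4% of sites without a WT1 match. The part of GC content in these shares was not tested. At least 1 of forkhead, LMX1B and TEAD was matched at 1730 sites (53.4%), against 30.2% of PBS-only and 38.6% of shared sites. No match to any of the 5 motifs was found at 1123 sites (34.6%).

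Intronic ADR-only peaks resembled the intergenic sites. Their forkhead share was 38.9%, a difference of 1.82 points with an interval of −0.21 to 3.85, and their AP-1 share was 2.38% and WT1 share 19.9%. TEAD matches were more common at the intergenic sites, by 2.73 points (interval 1.35 to 4.11).

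Other motifs were searched by fixed strings, also on both strands. The E-box CATCTG or CAGCTG, of the type bound by the podocyte TF TCF21, was at 34.6% of the sites, against 23.4% of flanking windows, 20.2% of evenly spaced windows and 31.0% of PBS-only sites. Shared intergenic sites had 33.0% and intronic ADR-only peaks 34.7%. The MAF monomer site TGCTGAC was at 5.95%, against 3.12% of flanks, 2.52% of evenly spaced windows and 4.79% of PBS-only sites. Shared intergenic sites had 4.99% and intronic ADR-only peaks 6.49%. For both motifs the intervals of the differences from shared and from intronic sites included 0. The HNF1 monomer site GTTAAT was at 8.86% of the sites and 5.25% of PBS-only sites. This string shares the bases TTAAT with the LMX1B motif, so the same stretch can match both, and how often it did was not tested. For the HNF1 site the flanking windows had 6.94% and the evenly spaced windows 8.60%, or 4.71% when weighted by GC content. The weighted shares were 25.4% for the E-box and 3.69% for the MAF site.

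The motif of CTCF, the insulator protein, was at 20 sites (0.62%), 3.12% of PBS-only sites and 0.097% of evenly spaced windows. In the same order the ETS string CCGGAAG was at 0.93%, 2.69% and 0.46%, and the CRE string TGACGTCA at 0.12%, 0.67% and 0.096%. The string TGTGGTT of RUNX proteins was at 2.99%, 4.79% and 4.50%, and the GATA string AGATAAG at 2.47%, 3.31% and 3.11%. Weighted by GC content, evenly spaced windows had 0.19% for CTCF, 1.15% for ETS and 0.19% for CRE. For RUNX and GATA they had 3.98% and 2.66%. Only the CTCF motif was more frequent at the sites than in the weighted windows. These motifs were less frequent at ADR-only than at PBS-only sites, with intervals of the difference below 0 that were not adjusted for the number of motifs searched.

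The same held for the nuclear receptor monomer site AGGTCA, at 14.5% of the sites, 18.1% of PBS-only sites and 10.4% of evenly spaced windows, and for the steroid receptor site AGAACA, at 15.6%, 17.6% and 19.2%. For 4 further motifs the interval of the difference included 0. The KLF motif, GGGNGNGG with a pyrimidine and then G or T at N, was at 9.72% of the sites, 10.3% of PBS-only sites and 3.40% of evenly spaced windows. The NFI site TTGGCA was at 13.1%, 12.3% and 9.67%, and the NFY site GATTGG at 5.62%, 6.25% and 6.98%. The SOX motif, ACAATGG or its variant with A in place of T, was at 7.47%, 6.71% and 7.87%. Weighted by GC content, the evenly spaced windows had 7.29% for KLF, 10.1% for NFI, 7.45% for NFY and 7.36% for SOX. For AGGTCA and AGAACA they had 11.9% and 16.5%.

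Among the 3374 strings of 7 bases present at 1% or more of the sites within 50 bp of the summit, each taken with its reverse complement, those with the largest ratio to the flanking windows were C-rich. CTCCCAC was at 740 sites (22.8%), 10.6 times the 2.14% of the flanks, and at 13.9% of PBS-only and 28.2% of shared sites. It is part of the WT1 motif, as is the first-ranked CCCACGC, at 3.36% of sites and 11.5 times its flanks. GGGAGTA was at 6.23% of the sites, 2.61% of PBS-only and 5.09% of shared sites. In the same order CACTCCC was at 12.1%, 5.74% and 11.0%, and ACTCCCA at 11.7%, 5.41% and 11.2%. The other strings among the first 10 had ratios from 6.63 to 8.45. They were CGTGGGA at 2.87% of the sites, ACTCCCC at 6.88%, GGGAGGA at 21.5%, ACTCCTC at 6.85% and CGTGGGC at 1.64%.

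The strongest site lay 5.96 kb upstream of *Ren1*, which encodes renin, the protease that opens the angiotensin cascade. Some mouse strains carry *Ren2*, a near copy of this gene, and reads from it could not be told apart here. It had a fold of 42.1 and a −log10 q of 159.5, and the nearest PBS peak was 2.77 kb away. A pair of further ADR-only intergenic sites there had folds of 13.1 and 4.84, and the only intergenic PBS-only site within 50 kb of *Ren1* had a fold of 4.36. The next strongest site was on chromosome 18, 1538 kb from the nearest coding gene start, that of *Celf4*, and had a fold of 40.7.

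Next in order came sites nearest to *F930015N05Rik* (fold 40.3), *Mapt*, which encodes the microtubule protein tau (37.0), *Riiad1* (36.9), *Mesd* (36.2), *Srek1ip1* (35.4) and *Mgat4a* (35.0). The distances of these 6 sites to the gene start ran from 15.7 to 252 kb. *Sh2d4a* had a site of fold 34.8. *Nr2f2*, which encodes the nuclear receptor COUP-TFII, had one of fold 34.0 at 288 kb, with forkhead and LMX1B matches. The others of the 20 strongest were nearest to *Uck2*, *BC048507*, *Htr5b*, *Pias1*, *Galc*, *Zfp423*, *Vegfa*, *Iqsec3*, *Pank1* and *Serpinb6b*, with folds of 29.3 to 33.5.

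The sites were spread over 1926 nearest coding genes, of which 1277 had 1 site and 78 had 5 or more. *Gm826* was nearest to 22 sites and *Dhx35*, which encodes an RNA helicase, to 15. *Ajap1* had 13, *Jarid2*, which encodes a Polycomb cofactor, had 12, and *Ccdc54* had 11. *Galc*, *Cdh5*, *Tmem164*, *Gas1* and *Zfp608* had 10 each. *Tmem164*, on the X chromosome, was nearest to no intergenic PBS-only and no shared intergenic site, and the 11 sites within 150 kb of its start had folds of 5.28 to 23.9. *Cdh5*, which encodes the endothelial VE-cadherin, was nearest to 0 PBS-only and 5 shared sites.

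In bins of 1 Mb across the genome, 1234 of 2737 held a site, with a median of 2 in those, and 26 bins held 10 or more. The most sites in a bin were 26, against 20 intergenic PBS-only sites and 34 shared ADR peaks in the bins richest in those.

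Chained at gaps of at most 12500 bp, the sites formed 2621 groups, and 2174 sites (67.1%) stood alone. There were 329 pairs and 118 groups of 3 or more, the largest with 6. A group of 6 covers 17.6 kb, 389 to 406 kb from the start of *Fut8*, which encodes a fucosyltransferase, with folds of 3.77 to 13.7 and no PBS peak of any kind inside. Another group of 6 lies between *Top1mt* and *Rhpn1*, with folds of 3.06 to 11.7, and a further one upstream of *Med4*, with folds of 3.73 to 10.8. Groups of 5 lay upstream of *Fbxo21*, with a top fold of 21.4, and near *Ccdc54*, with a top fold of 20.6. At *Fbxo21* 4 of the 5 sites had a forkhead match, and in the *Top1mt* and *Rhpn1* group none had a match to forkhead, LMX1B, TEAD or WT1.

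An intergenic ADR-only summit lay within 50 kb of the start of 2399 coding genes (10.9%). Of 48 genes characteristic of podocytes, a list used by the study that comes from earlier single-cell work and is not independent evidence, since its peak numbers had been seen before, 22 had one (45.8%, interval 32.6 to 59.7%). Of the same 48, 12 had an intergenic PBS-only summit that near and 26 a shared one. Of all 21935 coding genes, 3318 had a PBS-only summit that near and 3742 a shared one. The intergenic sequence around these genes held 27.9 ADR-only sites per Mb, 9.87 PBS-only sites per Mb and 30.8 shared sites per Mb. Over all coding genes those densities were 3.97, 5.37 and 6.82 per Mb. Within 10 kb, 9 of the 48 (18.8%) had an ADR-only site, against 2.53% of all coding genes, and within 100 kb 31 (64.6%), against 19.5%.

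*Vegfa*, which encodes the growth factor that podocytes supply to glomerular endothelium, had 4 ADR-only intergenic sites upstream, with folds of 5.01, 11.2, 12.7 and 31.0. The strongest, 19.9 kb upstream, is 1246 bp wide, the widest of the 3241, and the nearest PBS peak is 1.41 kb away. An intergenic PBS-only site within 50 kb had a fold of 3.33. *Rhpn1*, which is in the podocyte list, had 9 sites, the most of the list, with folds of 3.06 to 22.5 and no PBS-only peak within 50 kb. The 10 PBS peaks within 50 kb of its start all overlapped an ADR peak.

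*Enpep*, which encodes the angiotensin-cleaving glutamyl aminopeptidase, had 1 site of fold 20.6, and *Eif3m* had 3 sites with a top fold of 18.8. *Rasl11a* (17.3), *Nap1l1* (15.2) and *Sdc4*, which encodes the proteoglycan syndecan-4 (13.2), followed. The weakest of the 22 genes by top fold was *Mertk*, at 4.02. The 48 sites near these genes had a median fold of 6.03 and a median GC content of 51.7%. Forkhead matches were at 13 of the 48 (27.1%, interval 16.6 to 41.0%) and a TEAD match at 1, against 40.9% and 13.7% of all other sites.

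**Figure D4:**
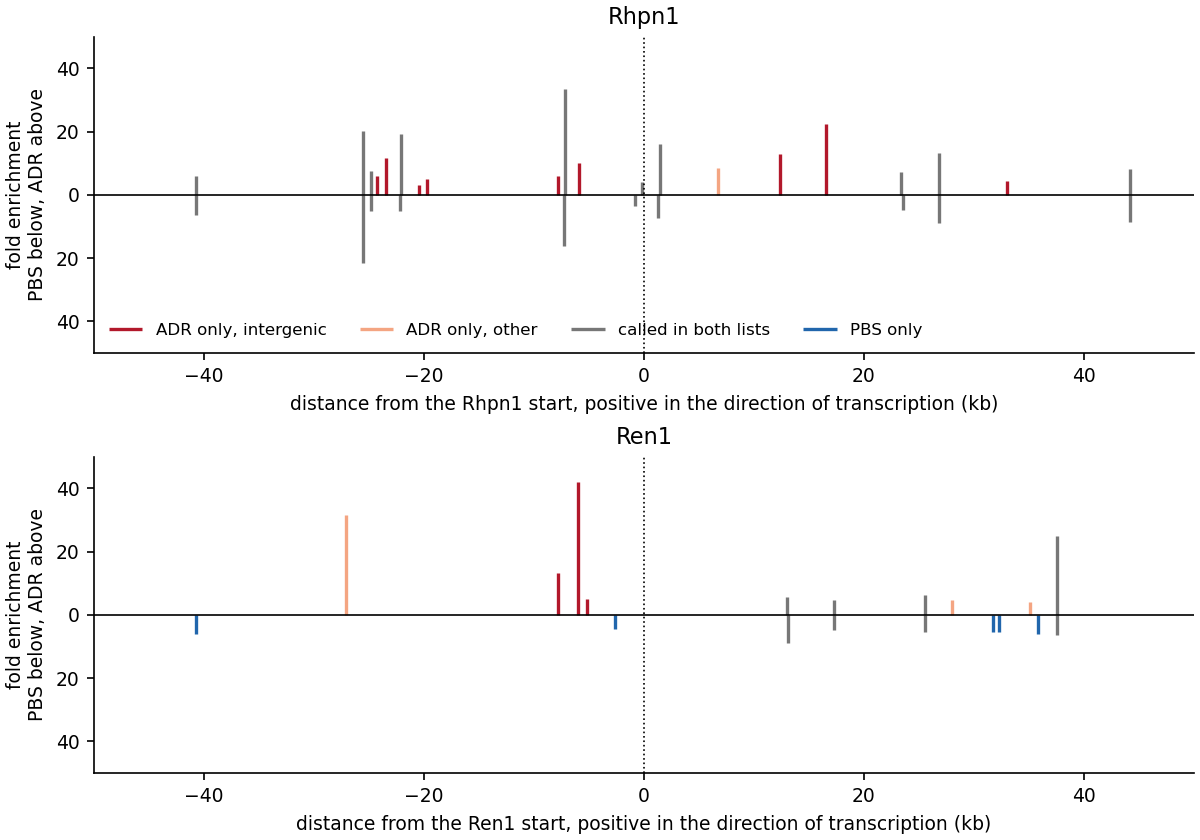
FOXC2 peaks by distance of the summit from the start of *Rhpn1* (top) and *Ren1* (bottom, x axes in kb, positive in the direction of transcription), with the authors' fold as height, ADR above and PBS below the line. At *Rhpn1* the 9 intergenic ADR-only sites (folds 3.06 to 22.5) lie among shared peaks with no PBS-only peak, and upstream of *Ren1* the 3 intergenic ADR-only sites have folds of 4.84, 13.1 and 42.1.

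Of all 21935 coding genes, 2399 (10.9%) had an ADR-only site within 50 kb and 3318 a PBS-only site. In a list of 48 glomerular disease and slit diaphragm genes, 14 (29.2%) had an ADR-only site within 50 kb and 18 a PBS-only site. The strongest was near *Inf2*, which encodes a formin mutated in focal segmental glomerulosclerosis, with a fold of 19.8, followed by *Actn4*, the α-actinin-4 gene (17.6), *Nup107* (17.0) and *Kank1* (10.8). *Podxl*, which encodes podocalyxin and is in both lists, had 4 sites with a top fold of 9.07. *Plce1* had 3 sites and a top fold of 8.56, *Itga3* 1 of fold 6.65, and *Trpc6*, which encodes a cation channel, 2 with a top fold of 6.63. Densities were 19.0 ADR-only and 25.9 PBS-only sites per Mb.

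Of 30 podocyte TF genes 8 (26.7%) had a site, and 11 had a PBS-only one, against 2399 (10.9%) and 3318 of all 21935 coding genes. Among the 8 TF genes were *Foxd1* (top fold 12.1), *Tcf21* (8.71), *Sox11* (6.92), *Zhx2* (6.61), *Sall1* (5.01), *Meis1* (4.51) and *Foxc1* (2.91). The strongest *Foxd1* site and the *Sall1* site each held both a forkhead and an LMX1B match. Of 44 forkhead genes 10 (22.7%) had a site, led by *Foxi1* (21.7) and *Foxo6* (19.6) and followed by *Foxd1*, *Foxs1* (11.4), *Foxl2* (6.10), *Foxd2* and *Foxe3*, which share 1 site of fold 6.05, and *Foxb2* (5.55). These 10 had 14 ADR-only sites between them.

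The other lists, each small, gave wider intervals, and the share over all coding genes was 10.9%. A site lay within 50 kb of 12 of 35 actin cytoskeleton and focal adhesion genes (34.3%, interval 20.8 to 50.8%), 5 of 23 YAP and TEAD target genes, 4 of 24 p53 and DNA damage response genes and 3 of 30 basement membrane and matrix genes. The last list had 3.13 ADR-only and 26.1 PBS-only sites per Mb, and the p53 list 4.74 and 26.0. Lists of other cell types had 3 of 21 endothelial, 2 of 18 mesangial and renin cell, 5 of 20 proximal tubule, 3 of 12 parietal epithelial and 3 of 19 immune genes, each share between 11.1% and 25%. Of 1135 olfactory receptor genes 16 (1.41%) had one. The interval lay above 10.9% for the actin and the proximal tubule lists (the latter 11.2 to 46.9%). These intervals treat the genes of a list as independent. In the proximal tubule list a pair of the 5 genes are neighbors with the same strongest site, so its lower limit is too high to set it apart from 10.9%. The interval lay below 10.9% for the olfactory receptor genes (0.87 to 2.28%) and included it for the other lists of this paragraph. The podocyte list was the one with the highest density of ADR-only sites, with 48 ADR-only and 17 PBS-only sites. The immune and forkhead lists also had more ADR-only than PBS-only sites per Mb, but only by 3 sites against 1 and 14 against 13.

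**Figure D5:**
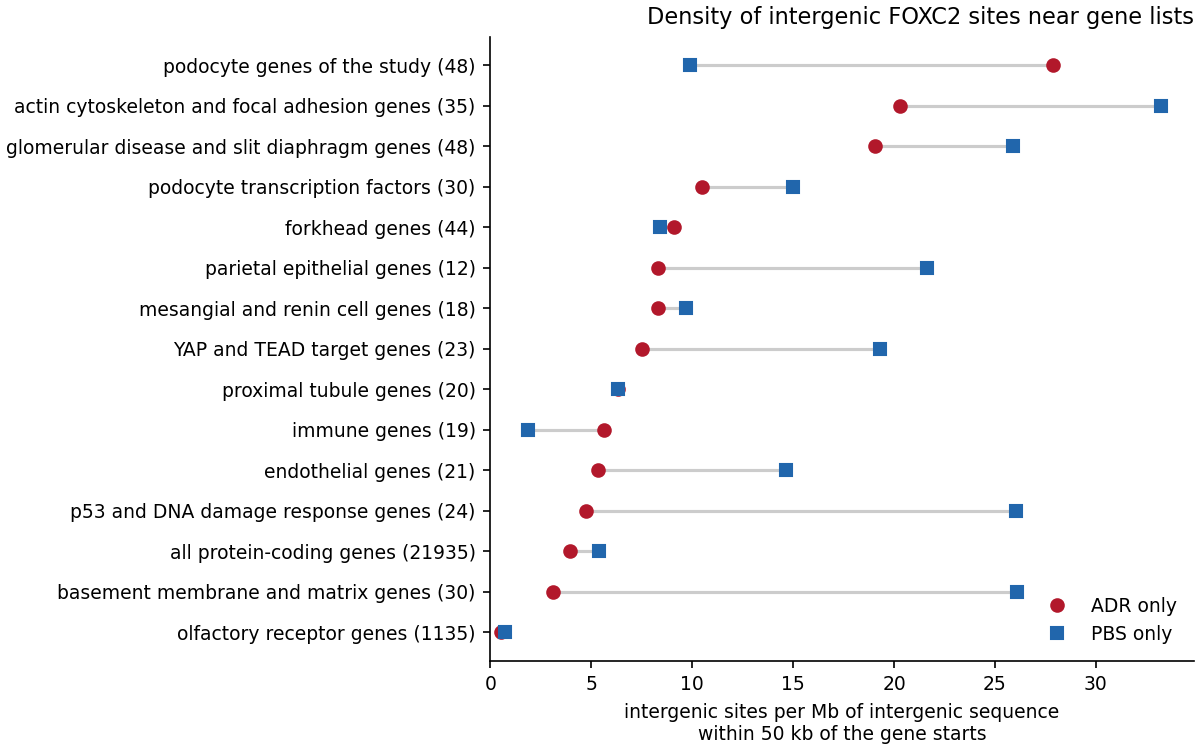
Intergenic ADR-only (circles) and PBS-only sites (squares) per Mb of intergenic sequence within 50 kb of the gene starts (x axis) for 14 gene lists and all coding genes (y axis, number of genes in parentheses). The podocyte genes lie at the top with 27.9 ADR-only and 9.87 PBS-only sites per Mb, against 3.97 and 5.37 for all coding genes.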

How the data were processed

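FOXC2 ChIP-seq of podocytes was deposited as 2 pooled peak lists, 1 per condition, made from 3 ADR and 3 PBS samples. Narrow peaks on GRCm38 came from the nf-core/chipseq pipeline, run by the authors. Which caller version and cutoff it used is not given in the sources used here. For each peak the authors deposited a score (a whole number, not used here), a fold over local control, which is a ratio, and the −log10 of p (not used) and of q. Read depth is not in the lists.

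Overlap of at least 1 bp, GENCODE M21 and the GRCm38 sequence defined the sites. Motifs were exact matches on both strands within 100 bp of the summit, and repeats were the soft-masked bases. Weighted comparisons averaged the shares within bins of GC content or fold by the distribution of the ADR-only sites. Shares carry 95% Wilson intervals, and a difference between a pair of shares carries a normal interval. Functions were tested on simulated intervals and sequences. The analysis used Python 3.11.15, NumPy 2.4.6, pandas 2.3.3, SciPy 1.17.1 and matplotlib 3.10.9.

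The sites and gene lists were chosen with earlier results of these data known. Named are the nearest genes of the 20 strongest sites, the 10 genes nearest to the most sites, the 5 largest groups, and up to 8 genes per list of podocyte, glomerular disease, podocyte TF and forkhead genes by top fold, plus the 10 leading strings. *Mertk* was named after its value was seen. Some genes and sequences that this rule names are not reported here. Alternatives are given below. The study's differential binding on reads, WT1 ChIP-seq and RNA-seq are not analysed here.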

Additional observations from a re-analysis of the deposited data

How the results depend on the processing

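No paired analysis was possible because each condition is 1 pooled list whose columns carry no replicate. Of 84 alternatives, 62 left a value within its counting interval (or a count within 1.5 times) and 22 moved it. None reversed a difference whose interval lay clear of 0. With 20000 peaks per list the sites numbered 1843, and the differences from PBS-only sites were 9.85 points for LMX1B, 4.32 for TEAD and −7.16 for WT1. Matches within 50 bp gave 11.9 points for forkhead, 4.59 for LMX1B and −10.4 for AP-1. GC weighting gave 11.6 points for forkhead, and GTAAACA alone gave 3.63. With a −log10 q of at least 5 the differences were −21.3 points for AP-1 and −1.97 for WT1. A fold of at least 5 gave −22.9 and −2.82, and fold weighting −23.2 and −3.64. That fold raised the median distance to 52.5 kb. A margin of 5 kb gave −19.5 points for AP-1, a median distance of 69.1 kb and 29.2% of the podocyte genes. Any coding transcript start gave 39.9 kb. The podocyte share was 18.8% within 10 kb and 64.6% within 100 kb. The cause of these changes was not tested, except that fewer peaks, a shorter motif window, another margin or another gene window changes the value by construction. Without replicates and read depth, a site missing from the PBS list may hold signal below the caller's threshold.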

Other observations

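The X chromosome held 100 of the 3241 sites (3.09%), against 36 intergenic PBS-only sites (0.97%) and 102 shared intergenic ADR peaks (2.14%). These were 15.5% of its 645 ADR peaks, and the density was 0.93 per Mb of intergenic sequence, below that of every autosome (1.72 to 4.86 per Mb). Chromosome 11 had the highest density.

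Soft-masked repeats made up over 50% of the window at 339 sites (10.5%, interval 9.45 to 11.6%), 5.71% of PBS-only and 5.53% of shared intergenic sites. No CpG was present in the window at 16.4% of the sites, 8.43% of PBS-only and 8.24% of shared sites. The motif differences from PBS-only sites kept their direction for forkhead, LMX1B, TEAD and AP-1 when such repeat-rich sites were left out.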
